A study of Mus musculus with 60 samples.

Results

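This comparison asked what high-density lipoprotein (HDL) changed in the response of wild-type mouse macrophages to CpG, and it rested on 6 of the series' 60 Illumina mouse BeadChip arrays. The members were the arrays of the first wild-type experiment labelled HDL with CpG (3 arrays) and CpG (3 arrays). Both groups were bone marrow-derived macrophages of 6 to 8 week old C57BL/6 mice with the WT genotype; marrow cells became macrophages over 6 d of culture in M-CSF (40 ng/ml), a macrophage growth factor. The HDL with CpG cells received HDL at 2 mg/ml for 6 h and then CpG at 100 nM for 4 h. The CpG cells received 100 nM CpG and no HDL. The same experiment held 3 HDL arrays and 3 control arrays without CpG, all groups with a stimulation period of 10 h, and a second experiment repeated HDL with CpG and CpG in wild-type macrophages on 3 arrays each. That second experiment also held cells labelled Atf3-deficient and cells given P3C, a ligand of TLR2, and their arrays entered its fit. Whether a group's arrays stand for different animals, pools or cultures is not in the labels, so p-values measure the spread between arrays, which may be technical.

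CpG is synthetic DNA that is read as bacterial DNA by the endosomal receptor TLR9. TLR9 signals through the adaptor MyD88 to NF-kB, which drives inflammatory cytokines and chemokines, and to interferon regulatory factors (IRFs), which drive type I interferon. Secreted interferon acts back on the cells through JAK kinases, STAT factors and IRFs and turns on interferon-stimulated genes. HDL accepts cholesterol from macrophages and carries it in the blood; cells that lose cholesterol activate the factor SREBP2, whose targets make sterols and take them up, while loaded cells use the nuclear receptor LXR to export them.

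The labelled cell type was checked against its markers. All 9 macrophage markers with a probe were detected on each of the 6 arrays, and their summed normalised signal was 51300 to 56700 with HDL and CpG, against 54400 to 61300 with CpG. None of 9 erythroid and mast cell markers was detected on any of these arrays, nor were 8 of 10 lymphocyte markers (Cd3e, Cd4 and Cd8a among them), 6 of 10 dendritic cell markers (Flt3, Xcr1 and Clec9a among them) and 5 of 9 neutrophil markers (Mpo and Elane among them). The other neutrophil markers, S100a8, S100a9, Camp and Ltf, were detected on all 6 arrays, and the list summed to 381 to 501 with HDL and CpG, against 395 to 676 with CpG. The dendritic cell list, of which only Tcf4 was detected on all 6 arrays, summed to 651 to 807 with HDL and CpG, against 920 to 1160 with CpG. These sums did not overlap, but they are of linear signals and mostly follow Tcf4. Its log2 signals were 9.53, 9.26 and 9.59 with HDL and CpG, against 10.02, 9.74 and 10.12 with CpG, a change that did not pass. Groups without overlap were found for 30.4% of all genes tested. Of 10 fibroblast and stromal markers, 6 were detected on all 6 arrays, with sums of 5510 to 7250 with HDL and CpG, against 4160 to 6980 with CpG. No marker of another cell type passed here, but few could be tested: 4 neutrophil, 3 dendritic cell, 2 lymphocyte, 8 fibroblast and 1 erythroid or mast cell marker. With 9.25% of all genes tested past the threshold, 0 among so few says little. Batf3 came close (-0.83 ± 0.24, adjusted p = 0.0505). In the second experiment 2 of 3 dendritic cell markers and 1 of 2 lymphocyte markers fell. There 1 of 4 neutrophil, 1 of 6 fibroblast and 1 of 2 erythroid and mast cell markers rose. The part of other cells in the results was not tested. In such bulk RNA, fewer cells of a type and less RNA per cell cannot be told apart. Of the macrophage markers Aif1 fell (-1.44 ± 0.22, adjusted p = 0.00123) and so did the integrin Itgam (-0.98 ± 0.27, adjusted p = 0.0389, up to 0.257 over the alternatives).

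Between 28.8% and 32.7% of 45281 probes were detected on the 6 arrays, and their number limits the precision. The arrays were spread unevenly over chips of 6. HDL with CpG replicate 1 lay on chip 1, where this experiment had no array without HDL, and CpG replicates 1 and 2 lay on chip 2, where it had none with HDL. HDL with CpG replicates 2 and 3 and CpG replicate 3 shared chip 3, the only chip with both groups. CpG replicates 1 and 2 were closer to each other (Pearson r = 0.994 across genes, median absolute log2 difference 0.132) than the other 11 pairs of 1 group, whose r was 0.933 to 0.987. They had identical signals for 348 probes, against 78 to 327 in those pairs and 69 to 383 between groups, and were kept as separate arrays. CpG replicate 3 correlated with HDL with CpG replicate 2 (r = 0.973) nearly as closely as with its own group (0.974 at most).

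HDL before CpG changed 828 of 8949 genes tested, 415 upward (4.64% of genes tested) and 413 downward (4.62%), by limma with a Benjamini-Hochberg adjusted p under 0.05. Counts in the gene lists below are to be read beside these shares. Values are log2 signals after background correction and quantile normalisation, and changes are log2 differences ± SE over 3 arrays a group, so that 1 stands for a doubling. "Rose" and "fell" are used of genes past this threshold; "at least" marks a gene that was not above background on any array of 1 group, whose fold is a lower bound. The median was 1.04 among genes that rose and -0.93 among those that fell, 219 rose and 167 fell by at least 2-fold, and 34 rose and 20 fell by at least 4-fold. The median over all genes tested was -0.05. The groups did not overlap for 2718 genes, or 30.4% of those tested, which include 826 of the 828. Scaling the arrays by their median in place of quantile normalisation moved the median of all genes to 0.05 and gave 474 genes up and 249 down. Without CpG replicate 1 the count was 517, without CpG replicate 2 it was 512 and without HDL with CpG replicate 2 it was 535. Array weights gave 3470 genes, 1363 up and 2107 down. None of the 828 changed sign under an alternative that tested it, nor on chip 3 alone, with 2 arrays against 1. For the 826 whose groups did not overlap, the sign on chip 3 was fixed in advance, so it is no check on the chips. Leaving out an array of the 2 groups, where 822 or 823 were tested, could hardly turn a sign either. Of 151 genes named by rule that passed, 95 passed under every alternative; for the others, the largest adjusted p over the alternatives is given as "up to".

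The transcription factor Atf3, which the series' title names as the mediator of the HDL effect, had log2 signals of 11.16, 10.85 and 10.57 on the HDL with CpG arrays, against 10.06, 9.92 and 9.71 on the CpG arrays. It rose by 0.96 ± 0.24 (adjusted p = 0.0243, up to 0.0915 over the alternatives). Every array with HDL lay above every array without it, and the difference on chip 3 was 1.0. The probe for Tlr9, the receptor of CpG, was detected on no HDL with CpG array and on 1 CpG array, so no fold is given.

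Of the 15 largest named falls, 6 were on the 4 lists of the interferon response. Of 25 antiviral effectors and genes of the ISG15 system tested, 21 fell and 0 rose, with a median of -1.42 against -0.05 over all genes. Of 9 interferon-inducible GTPases 5 fell (median -0.94), of 16 nucleic acid sensors 4 fell (median -0.28), and of 15 interferon receptors, JAK-STAT members and IRF factors 3 fell and 1 rose (median -0.13). On chip 3 alone these medians were -1.63, -1.18, -0.59 and -0.13 in the same order. CpG over control set the CpG arrays against the control arrays of the same experiment. In that order, it raised 12, 6, 2 and 4 members of these lists and lowered 1, 0, 2 and 3. Over all genes tested, 12.8% rose and 21.2% fell in that comparison.

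Usp18, a protease that removes ISG15 from proteins and restrains the interferon receptor, had log2 signals of 8.74, 8.23 and 7.67 with HDL and CpG, against 11.34, 11.36 and 11.4 with CpG. It fell by 3.15 ± 0.24 (adjusted p = 1.03e-05). The groups did not overlap, and the HDL with CpG arrays overlapped the control arrays (8.45, 8.63 and 8.78). Isg15 itself, the ubiquitin-like protein that is joined to other proteins in infected cells, had 7.13, 7.19 and 6.84 with HDL and CpG, against 8.99, 9.2 and 9.22 with CpG. It fell by 2.08 ± 0.20 (adjusted p = 5.11e-05), again to a level that overlapped that of control cells (6.97, 6.75 and 7.32). The antiviral GTPase Mx2 had 5.86, 5.12 and 5.26 with HDL and CpG, against 8.23, 8.24 and 8.11 with CpG (-2.78 ± 0.19, adjusted p = 3.13e-06), and here every array with HDL and CpG lay below every control array, the lowest of which was at 6.17. Other effectors fell by less. Ifit3, which binds the machinery that reads foreign RNA, fell by 2.06 ± 0.26, and Oas2 and Oas1g, which make the messenger that activates RNase L, fell too (-1.98 ± 0.31 and -1.8 ± 0.29). Ifit1bl1 was not above background with HDL and CpG and was at least 1.62-fold lower there (adjusted p = 0.00226). Some of these genes did not pass in CpG over control, which does not show that they did not respond to CpG. The change of CpG over control passed for Isg15 (2.12, adjusted p = 6.61e-06) and Mx2 (1.94, adjusted p = 7.78e-06). It did not for Ifit3 (0.08, adjusted p = 0.842), Oas2 (0.58, adjusted p = 0.167) and Oas1g (0.49, adjusted p = 0.217). HDL without CpG lowered Ifit3 by 2.17 (adjusted p = 0.000283).

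Among sensors, Dhx58 (LGP2) had 6.74, 6.02 and 5.75 with HDL and CpG, against 8.55, 8.63 and 8.47 with CpG (-2.38 ± 0.25, adjusted p = 9.26e-05). The RNA sensor Ddx58 (RIG-I) fell by 1.53 ± 0.33 (adjusted p = 0.0107, up to 0.117), Sting1, the adaptor of cytosolic DNA sensing, by 0.82 ± 0.20 (adjusted p = 0.0227, up to 0.111) and Mndal, of the interferon-induced Ifi200 family, by 0.97 ± 0.21 (adjusted p = 0.0109, up to 0.0588). The GTPases that attack the vacuoles of pathogens included Igtp, at 7.72, 7.35 and 7.02 with HDL and CpG, against 9.79, 9.81 and 9.85 with CpG (-2.45 ± 0.20, adjusted p = 1.79e-05). Its neighbour Irgm2 fell by 2.37 ± 0.20 (adjusted p = 1.78e-05), Gvin1 by 1.8 ± 0.20 and the guanylate-binding protein Gbp7 by 0.94 ± 0.18 (adjusted p = 0.00521). All 3 arrays with HDL and CpG lay below all CpG arrays for each of these genes. CpG over control raised Igtp (1.42, adjusted p = 0.000202), Irgm2 (1.08, adjusted p = 0.00117) and Gbp7 (0.83, adjusted p = 0.00353). That change did not pass for Dhx58 (0.09, adjusted p = 0.812), Ddx58 (0.69, adjusted p = 0.126), Mndal (0.44, adjusted p = 0.123) and Gvin1 (0.26, adjusted p = 0.363). Sting1 went the other way, with 6.25, 6.48 and 6.15 on the CpG arrays, against 7.42, 7.82 and 7.05 on the control arrays.

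The factors that carry the interferon signal did not move together. Irf7, the IRF of the later interferon wave, had 6.67, 5.98 and 5.52 with HDL and CpG, against 7.98, 7.96 and 8.55 with CpG (-2.11 ± 0.32, adjusted p = 0.00128), and Stat2, a part of the complex that binds interferon-stimulated promoters, fell by 1.36 ± 0.17 (adjusted p = 0.000349). Irf1, in contrast, had 11.25, 11.26 and 11.42 with HDL and CpG, against 10.59, 10.61 and 10.26 with CpG. It rose by 0.82 ± 0.17 (adjusted p = 0.00901, up to 0.149 with the mean over its detected probes). Neither Irf7 (0.20, adjusted p = 0.677) nor Irf1 (-0.07, adjusted p = 0.782) passed in CpG over control.

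The promoters of 3 of these genes are shown because they hold the sequence that this factor family binds, GAAANNGAA, a core of the interferon-stimulated response element. Genes of the 4 interferon lists were taken in order of their fall. Those without a match or a promoter in the table, such as Usp18 and Mx2, were passed over. Each is the 250 bases before the annotated start in the RefSeq promoter table (build GRCm38.p6), 5′ to 3′ on the gene's strand, with the matches in capitals; in Isg15 there are 3 matches, which overlap.
Igtp, chr11:58199306-58199555, plus strand: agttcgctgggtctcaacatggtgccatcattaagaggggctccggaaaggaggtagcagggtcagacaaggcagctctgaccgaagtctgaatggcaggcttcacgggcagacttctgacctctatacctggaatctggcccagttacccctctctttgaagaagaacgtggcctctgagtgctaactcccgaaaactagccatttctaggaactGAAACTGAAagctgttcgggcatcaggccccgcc
Irgm2, chr11:58214727-58214976, plus strand: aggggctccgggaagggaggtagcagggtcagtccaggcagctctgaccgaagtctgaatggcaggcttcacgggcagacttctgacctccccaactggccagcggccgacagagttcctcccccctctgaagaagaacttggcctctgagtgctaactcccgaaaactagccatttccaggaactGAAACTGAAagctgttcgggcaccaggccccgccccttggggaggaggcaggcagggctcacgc
Isg15, chr4:156200819-156201068, minus strand: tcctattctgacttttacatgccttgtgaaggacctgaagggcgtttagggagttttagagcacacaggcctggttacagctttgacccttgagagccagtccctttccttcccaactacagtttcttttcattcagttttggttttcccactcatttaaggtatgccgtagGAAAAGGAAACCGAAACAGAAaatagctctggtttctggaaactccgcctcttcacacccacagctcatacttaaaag
Counted from the start, the match began at position -34 in Igtp, at -64 in Irgm2 and at -78 for the first in Isg15. Searched on both strands, GAAANNGAA lay in 23 of 52 genes of the 4 interferon lists with a promoter in the table (44.2%), in 16.8% of genes that fell, 5.99% of genes that rose, 7.45% of genes tested and 7.13% of all 32851 promoters.

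Fc receptors, by which macrophages take up antibody-coated particles, fell as well: 5 of 7 tested and 0 upward (median -0.94). Fcgr1, the high-affinity receptor for IgG and an interferon-responsive gene, showed the largest fall of all named genes. Its log2 signals were 6.07, 5.69 and 5.44 with HDL and CpG, against 9.04, 8.93 and 9.27 with CpG (-3.34 ± 0.20, adjusted p = 2.15e-06). The control cells were higher still, at 10.17, 10.12 and 9.91. Fcgr4 had 9.88, 9.55 and 9.67 with HDL and CpG, against 11.43, 11.47 and 11.44 with CpG (-1.75 ± 0.16, adjusted p = 3.72e-05). Trim21, a cytosolic antibody receptor, fell by 1.5 ± 0.20 (adjusted p = 0.000466). The activating receptor Fcgr3 (-0.94 ± 0.26, adjusted p = 0.0432, up to 0.133) and the inhibitory receptor Fcgr2b (-0.78 ± 0.22, adjusted p = 0.0427, up to 0.219) passed by a small margin.

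Chemokines moved both ways. Ccl12, which attracts monocytes, had 6.33, 5.95 and 6.25 with HDL and CpG, against 9.31, 9.34 and 9.87 with CpG (-3.33 ± 0.19, adjusted p = 1.69e-06). Cxcl10, an interferon-induced attractant of T cells, had 7.26, 6.91 and 6.48 with HDL and CpG, against 9.11, 9.48 and 9.02 with CpG (-2.32 ± 0.21, adjusted p = 3.14e-05), and Cxcl9, which shares its receptor, fell by 1.29 ± 0.25 (adjusted p = 0.00526). In both groups Cxcl10 stayed above the control arrays (5.67, 5.33 and 5.29). The neutrophil attractant Cxcl1, in contrast, had 13.63, 13.55 and 13.63 with HDL and CpG, against 12.55, 12.55 and 12.11 with CpG (1.2 ± 0.20, adjusted p = 0.00244), and Cxcl3, of the same kind, was not above background with CpG and was at least 1.42-fold higher with HDL (adjusted p = 0.00261). In all, 2 of 9 CXC and CX3C chemokines rose and 3 fell, and 2 of 9 CC chemokines fell, against 4.64% up and 4.62% down over all genes tested. The second CC chemokine, Ccl7, fell by 0.70 ± 0.20 (adjusted p = 0.0453, up to 0.379), and Ccl5 did not pass, at 11.26, 11.6 and 11.31 with HDL and CpG, against 11.88, 11.67 and 12.03 with CpG (-0.47 ± 0.20, adjusted p = 0.193).

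Of 10 inflammatory cytokines tested 1 rose and 2 fell, against 4.64% and 4.62% of all genes tested, and 7 did not pass. The median was -0.18, and 9 of the 10 were lower with HDL, past the threshold or not. Tnf had 12.71, 12.58 and 12.17 with HDL and CpG, against 12.58, 12.7 and 12.4 with CpG (-0.07 ± 0.26, adjusted p = 0.897), so that the groups overlapped at a level far above control cells (7.84, 6.83 and 7.18). Il6 varied within both groups, at 5.63, 7.15 and 7.86 with HDL and CpG, against 6.69, 6.67 and 7.83 with CpG (-0.18 ± 0.46, adjusted p = 0.85), with its higher values on chip 3. Il1b had 13.1, 12.98 and 12.93 with HDL and CpG, against 13.85, 13.83 and 13.86 with CpG. Its groups did not overlap, but the change of -0.85 ± 0.29 did not pass (adjusted p = 0.0963). Both chains of interleukin-27 fell, Il27 by 1.04 ± 0.19 (adjusted p = 0.00454) and Ebi3 by 0.81 ± 0.21 (adjusted p = 0.0284, up to 0.124), while oncostatin M, Osm, rose by 0.86 ± 0.19 (adjusted p = 0.0147, up to 0.0594).

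The anti-inflammatory cytokine Il10 fell. It had 8.69, 8.26 and 8.01 with HDL and CpG, against 10.78, 10.81 and 11 with CpG (-2.54 ± 0.20, adjusted p = 1.64e-05), and stayed above the control arrays at 6.58, 6.17 and 6.4. Socs3, a feedback inhibitor of cytokine receptors, fell by 0.75 ± 0.16 (adjusted p = 0.0106, up to 0.213); the 11 other members of that list did not pass. Of 17 NF-kB subunits, inhibitors and feedback genes 1 rose and 1 fell (median -0.07): the subunit Rela rose by 0.60 ± 0.13 (adjusted p = 0.0118, up to 0.0601) and the inducible cofactor Nfkbiz fell by 0.65 ± 0.16 (adjusted p = 0.0249, up to 0.168). Of 21 TLR adaptors and kinases, Myd88 fell by 0.69 ± 0.16 (adjusted p = 0.0163, up to 0.183) and Tlr4, the receptor for bacterial lipopolysaccharide, rose by 0.94 ± 0.17 (adjusted p = 0.00386, up to 0.0958). The counts of the NF-kB and TLR lists lay near the shares over all genes tested, 4.64% up and 4.62% down. Ptgs2, the inducible enzyme of prostaglandin synthesis, had 6.98, 8.93 and 9.63 with HDL and CpG, against 6.2, 5.85 and 8.48 with CpG (1.67 ± 0.68, adjusted p = 0.163). Its groups overlapped, and the high values in each were those of chip 3.

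**Figure D1:**
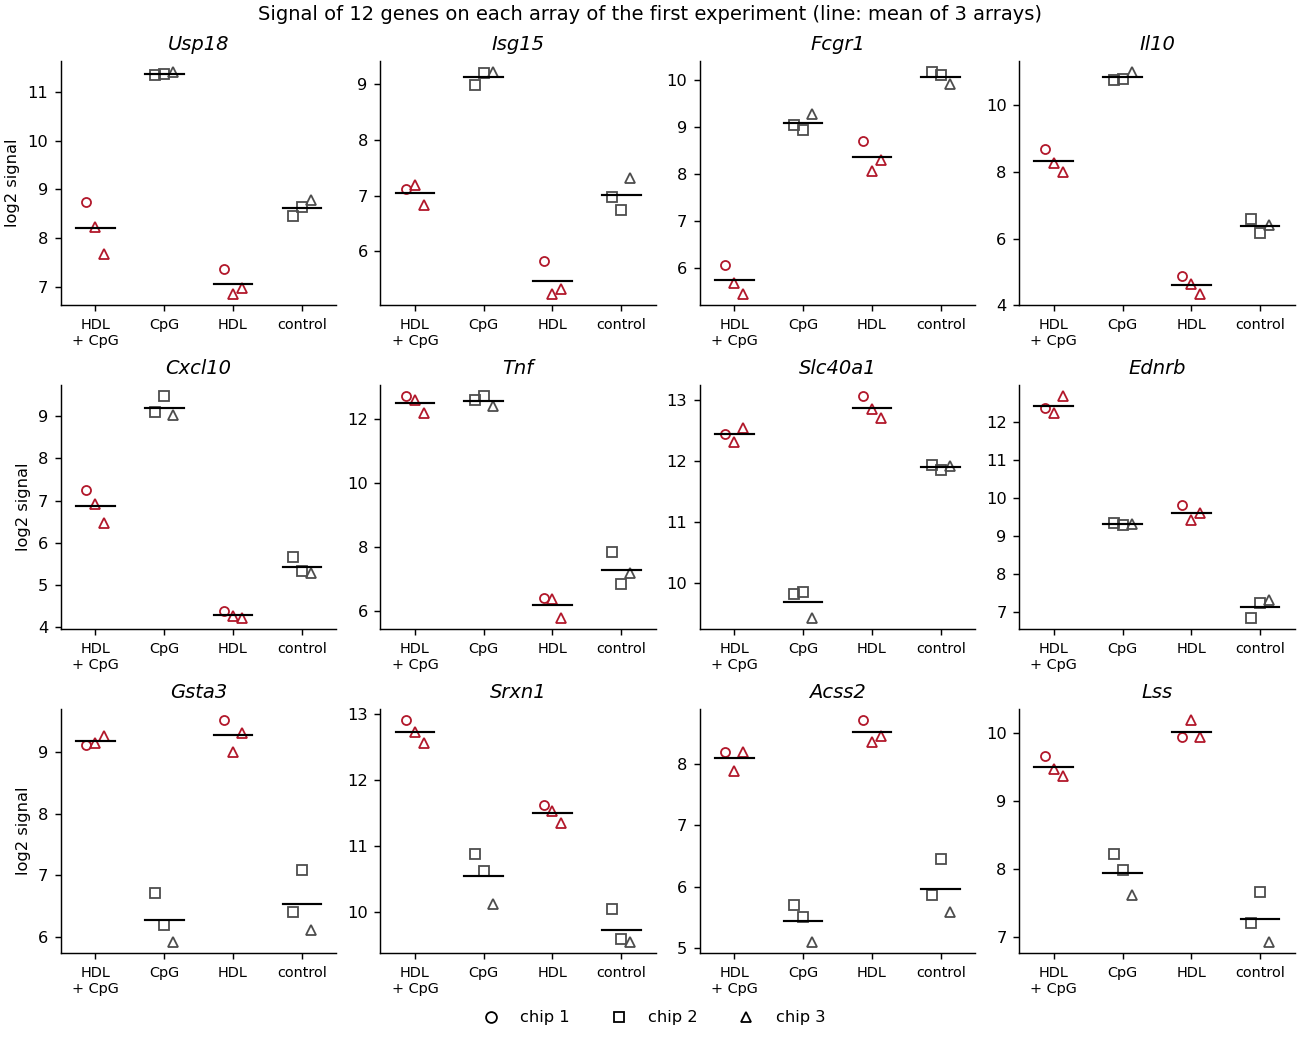
Log2 signal (y axis) of 12 genes on each of the 12 arrays of the first experiment, by group (x axis); red symbols are arrays with HDL, symbol shape gives the chip and lines are means of 3 arrays. Usp18, Isg15, Fcgr1, Il10 and Cxcl10 are lower with HDL and CpG than with CpG on every array, Tnf overlaps, and Slc40a1, Ednrb, Gsta3, Srxn1, Acss2 and Lss are higher.

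Some genes that make sterols and fatty acids rose and none fell. Of 19 genes of sterol synthesis and uptake tested, targets of SREBP2, 7 rose and 0 fell (median 0.93), and of 12 genes of fatty acid synthesis 6 rose and 0 fell (median 0.55). Lss, which closes the ring of the first sterol, had log2 signals of 9.66, 9.47 and 9.36 with HDL and CpG, against 8.22, 7.98 and 7.61 with CpG (1.56 ± 0.21, adjusted p = 0.00055). Mvd, an enzyme of the mevalonate pathway, rose by 1.38 ± 0.24 (adjusted p = 0.00317), the demethylating oxidase Msmo1 by 1.30 ± 0.17 (adjusted p = 0.000457), the farnesyl diphosphate synthase Fdps by 1.04 ± 0.19 (adjusted p = 0.00359) and the sterol carrier Stard4 by 1.21 ± 0.29 (adjusted p = 0.0213, up to 0.121). Acss2, which makes acetyl-CoA from acetate, had the largest rise of these lists, at 8.2, 7.89 and 8.19 with HDL and CpG, against 5.7, 5.5 and 5.1 with CpG (2.66 ± 0.23, adjusted p = 2.63e-05). The desaturases Fads1 and Scd1 rose by 0.94 ± 0.13 (adjusted p = 0.000745) and 0.85 ± 0.17 (adjusted p = 0.00625).

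LXR targets and genes of cholesterol export did not follow 1 direction: 2 of 14 rose and 3 fell (median -0.20). Abcg1, which passes cholesterol to HDL, was detected on no array with HDL and CpG (4.44, 4.62 and 4.81, at background) and on all 3 CpG arrays (6.49, 6.22 and 6.16). It was at least 2.76-fold lower with HDL (adjusted p = 0.000137). Control cells had 8.08, 8.56 and 8.14. Ch25h, which makes 25-hydroxycholesterol, fell by 0.93 ± 0.23 (adjusted p = 0.0253, up to 0.118), and the lipoprotein lipase Lpl by 0.53 ± 0.13 (adjusted p = 0.0251, up to 0.359). The cholesterol ester hydrolase Nceh1 rose by 1.27 ± 0.20 (adjusted p = 0.00181) and Npc1, which moves cholesterol out of lysosomes, by 0.90 ± 0.20 (adjusted p = 0.0143, up to 0.0517). Among genes of lipid droplets, fatty acid oxidation and PPAR signalling, 8 of 16 rose and 0 fell (median 0.90). The droplet proteins Hilpda and Plin2 rose by 1.61 ± 0.15 (adjusted p = 3.73e-05) and 1.84 ± 0.45 (adjusted p = 0.0223, up to 0.101), the lipase inhibitor Angptl4 by 1.84 ± 0.19 (adjusted p = 8.03e-05) and the fatty acid carrier Fabp5 by 1.62 ± 0.30 (adjusted p = 0.00412). Pdk4, a kinase that turns cells from glucose to fat oxidation, was not above background with CpG and was at least 2.76-fold higher with HDL (adjusted p = 0.000704).

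NRF2 is the factor that oxidants and electrophiles release to turn on glutathione and thioredoxin genes. Of 26 NRF2 targets tested 11 rose and 0 fell, with a median of 1.14, the highest of all lists. Gsta3, a glutathione transferase, had 9.12, 9.15 and 9.26 with HDL and CpG, against 6.72, 6.2 and 5.92 with CpG (2.89 ± 0.26, adjusted p = 3.45e-05). Srxn1, which repairs oxidised peroxiredoxins, had 12.92, 12.73 and 12.56 with HDL and CpG, against 10.88, 10.63 and 10.13 with CpG (2.19 ± 0.21, adjusted p = 5.11e-05). The cystine transporter Slc7a11 rose by 1.63 ± 0.22 (adjusted p = 0.000465), catalase, Cat, by 1.60 ± 0.28 (adjusted p = 0.00283) and the glutathione synthesis subunits Gclc and Gclm by 1.66 ± 0.37 (adjusted p = 0.0135, up to 0.0669) and 1.18 ± 0.16 (adjusted p = 0.000621). Hmox1, which breaks down haem, had 12.96, 13.39 and 12.26 with HDL and CpG, against 11.78, 9.14 and 11.44 with CpG. Its groups did not overlap, but CpG replicate 2 stood far below the others and the change did not pass (2.08 ± 0.63, adjusted p = 0.0619).

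The promoters of Gsta3 and Gclm are shown because they hold the core of the antioxidant response element, TGACNNNGC (in capitals, and in Gclm on the opposite strand). NRF2 list genes were taken in order of their rise. Those without a match or a promoter in the table, such as Srxn1 and Slc7a11, were passed over. The Igtp and Irgm2 windows shown earlier hold this sequence too. The windows and build are those given above.
Gsta3, chr1:21240335-21240584, plus strand: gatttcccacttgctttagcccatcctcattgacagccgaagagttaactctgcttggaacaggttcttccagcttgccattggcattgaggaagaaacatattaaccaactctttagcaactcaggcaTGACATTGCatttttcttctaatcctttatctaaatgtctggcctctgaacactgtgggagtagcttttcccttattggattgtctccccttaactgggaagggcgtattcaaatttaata
Gclm, chr3:122245307-122245556, plus strand: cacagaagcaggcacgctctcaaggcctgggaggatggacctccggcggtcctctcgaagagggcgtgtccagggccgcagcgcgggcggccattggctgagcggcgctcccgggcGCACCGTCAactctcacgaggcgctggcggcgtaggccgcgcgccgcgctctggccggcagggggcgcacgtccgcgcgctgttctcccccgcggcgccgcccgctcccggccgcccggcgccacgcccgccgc
Counted from the start, the match began at position -121 in Gsta3 and at -134 in Gclm. TGACNNNGC, searched on both strands, was present in 5 of 23 NRF2 list genes with a promoter (21.7%), in 16.5% of genes that rose, 15.6% of genes that fell, 13.8% of genes tested, 10.2% of all promoters and 19.2% of interferon list genes. These shares were not tested against each other. TCACNCCAC, a sterol response sequence, was found in 0 of 16 sterol genes with a promoter in the table and in 1.05% of all promoters.

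Of 22 stress genes under ATF4, the factor of the integrated stress response, 4 rose and 1 fell (median 0.38). Over all genes tested, 4.64% rose and 4.62% fell. Trib3, a pseudokinase, had 7.06, 6.9 and 7.21 with HDL and CpG, against 5.78, 5.25 and 5.22 with CpG (1.64 ± 0.19, adjusted p = 0.000185). Chac1, which degrades glutathione, rose by 1.48 ± 0.25 (adjusted p = 0.00263), and Nupr1 fell by 1.04 ± 0.19 (adjusted p = 0.0043). Of 17 chaperones and genes of the unfolded protein response 0 rose and Atf6 alone fell (at least 1.33-fold, adjusted p = 0.043, up to 0.193). The counts of this list and the single fall under ATF4 lay near the shares over all genes tested. In the ATF and AP-1 family, which includes Atf3, 4 of 19 rose and 1 fell: the small Maf proteins Maff and Mafg, partners of NRF2, rose by 1.26 ± 0.15 (adjusted p = 0.000211) and 1.01 ± 0.18 (adjusted p = 0.00344), and Fos fell by 0.95 ± 0.19 (adjusted p = 0.0073, up to 0.0624).

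**Figure D2:**
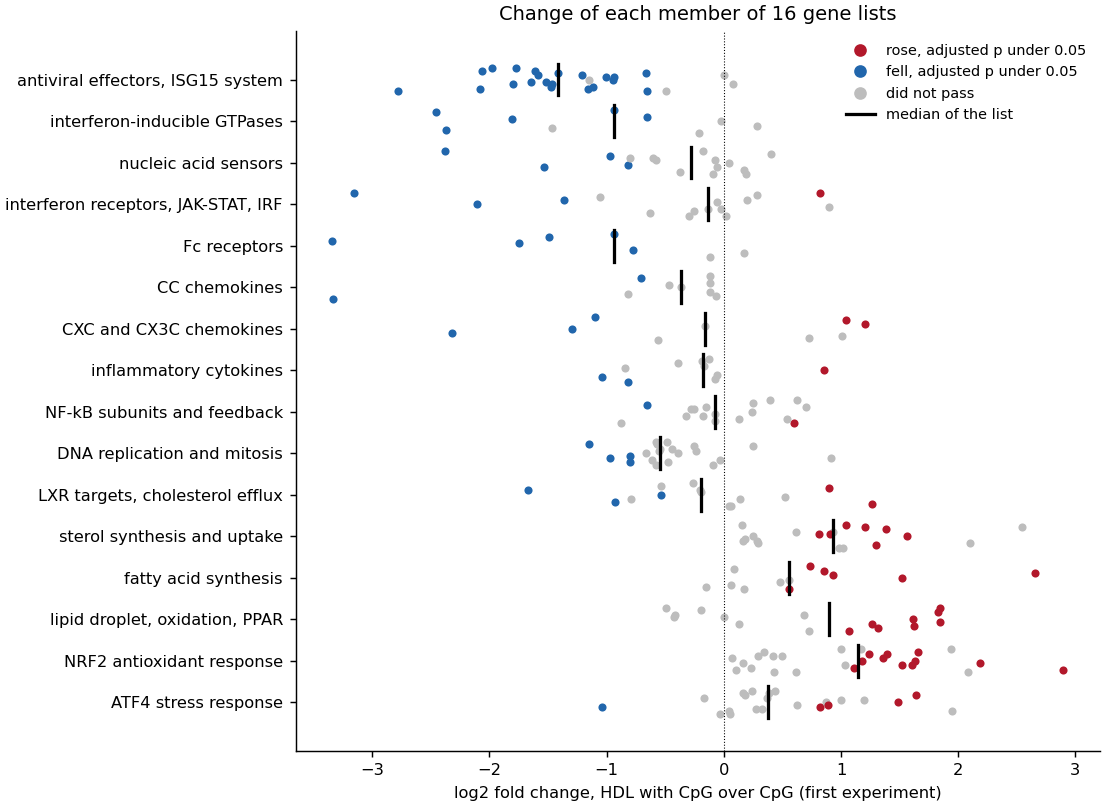
Log2 fold change of HDL with CpG over CpG (x axis) for each tested member of 16 gene lists (rows); red and blue points passed (adjusted p under 0.05), grey points did not, and black bars are list medians. The 21 antiviral effectors that fell lie left of 0 and the 11 NRF2 targets and 7 sterol genes that rose lie right of it; the medians over all tested members are -1.42, 1.14 and 0.93.

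The largest rises belonged to no 1 pathway. Ednrb, a receptor for endothelin, had 12.37, 12.25 and 12.7 with HDL and CpG, against 9.34, 9.29 and 9.31 with CpG (3.12 ± 0.17, adjusted p = 1.69e-06), while its ligand Edn1 fell by 1.70 ± 0.24 (adjusted p = 0.00086). The iron exporter Slc40a1 (ferroportin) had 12.45, 12.32 and 12.54 with HDL and CpG, against 9.81, 9.84 and 9.42 with CpG (2.75 ± 0.16, adjusted p = 1.69e-06), and control cells lay at 11.94, 11.86 and 11.92. Slc22a4, which carries ergothioneine and carnitine, had 8.18, 8.3 and 8.72 with HDL and CpG, against 5.27, 5.39 and 5.23 with CpG (3.10 ± 0.17, adjusted p = 1.69e-06). None of these groups overlapped. Il7r, the interleukin-7 receptor chain, rose by 2.80 ± 0.25 (adjusted p = 3.15e-05), Lhfpl2 by 2.74 ± 0.17 (adjusted p = 2.56e-06), the syntaxin Stx3 by 2.45 ± 0.20 (adjusted p = 1.66e-05), the kinase Tesk1 by 2.43 ± 0.40 (adjusted p = 0.00226) and the semaphorin receptor Plxna2 by 2.40 ± 0.24 (adjusted p = 8.03e-05). Cyfip2, of the actin-branching WAVE complex, had 7.06, 8.75 and 9.13 with HDL and CpG, against 5.32, 4.98 and 6.37 with CpG (2.75 ± 0.62, adjusted p = 0.0141, up to 0.072), with the higher values of each group on chip 3. The poly(A) polymerase Tent5c was not above background with CpG and was at least 5.15-fold higher with HDL (adjusted p = 3.13e-06).

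Receptors for chemoattractants and other ligands of the G protein-coupled class moved both ways, 4 of 20 up and 8 down. Besides Ednrb, Ccrl2, which binds chemerin, rose by 2.56 ± 0.17 (adjusted p = 3e-06), the platelet-activating factor receptor Ptafr by 1.78 ± 0.18 (adjusted p = 7.16e-05) and Cxcr4, the receptor for Cxcl12, at least 4.02-fold (adjusted p = 0.00378, up to 0.139). The fractalkine receptor Cx3cr1 had 5.23, 5.2 and 4.94 with HDL and CpG, against 6.8, 6.6 and 7.08 with CpG (-1.70 ± 0.18, adjusted p = 8.84e-05). The purine receptor P2ry13 was at least 1.60-fold lower (adjusted p = 0.0236, up to 0.176). Outside this list, the leukotriene receptor Cysltr1 fell by 2.21 ± 0.23 (adjusted p = 9.4e-05), and so did the surface molecules Igsf9 (-2.49 ± 0.16, adjusted p = 2.56e-06) and Slamf9 (-2.47 ± 0.25, adjusted p = 7.44e-05).

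Growth control genes shifted on both sides. The kinase Plk2 had 10.72, 11.23 and 11.18 with HDL and CpG, against 7.74, 7.74 and 8.16 with CpG (3.16 ± 0.28, adjusted p = 3.25e-05), the largest rise of all named genes. The CDK inhibitor Cdkn2b (p15) had 9.67, 9.6 and 9.92 with HDL and CpG, against 7.31, 6.99 and 6.96 with CpG (2.64 ± 0.21, adjusted p = 1.36e-05). Cyclin D1, Ccnd1, fell by 1.51 ± 0.17 (adjusted p = 0.000126), and so did the stress-responsive Ndrg1 (-2.16 ± 0.23, adjusted p = 1e-04) and thymidine kinase Tk1 (-1.15 ± 0.23, adjusted p = 0.0065). In the growth arrest list 5 of 18 rose and 4 fell, and of 21 genes of DNA replication and mitosis 4 fell and 0 rose (median -0.54). Of the phosphatases and decay factors that shut off MAP kinase signalling and cytokine mRNA, 4 of 19 rose and 4 fell: Dusp4 rose by 2.56 ± 0.21 (adjusted p = 1.81e-05) and Rgs1, a brake on G proteins, by 2.15 ± 0.15 (adjusted p = 3.79e-06), while Dusp2 fell by 1.60 ± 0.22 (adjusted p = 0.00074), and Zfp36 and Zfp36l1, which bind AU-rich mRNA, fell by 0.98 ± 0.17 (adjusted p = 0.00269) and 1.03 ± 0.17 (adjusted p = 0.00218).

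Secreted and metabolic genes changed singly. The elastase Mmp12 had 9.33, 10.23 and 10.95 with HDL and CpG, against 7.77, 7.8 and 8.24 with CpG (2.23 ± 0.43, adjusted p = 0.00536), heparanase, Hpse, rose by 1.58 ± 0.28 (adjusted p = 0.0035) and arginase 2, Arg2, by 1.72 ± 0.19 (adjusted p = 0.000137). Of 15 complement and acute phase genes 4 rose and 4 fell: Lcn2, which binds bacterial iron carriers, fell by 1.62 ± 0.29 (adjusted p = 0.0035) and haptoglobin, Hp, by 1.05 ± 0.18 (adjusted p = 0.00244), while the protease inhibitor Slpi rose by 1.43 ± 0.30 (adjusted p = 0.00882) and coagulation factor F10 by 1.38 ± 0.21 (adjusted p = 0.00141). The angiogenic factor Vegfc fell by 1.07 ± 0.19 (adjusted p = 0.00297) and its coreceptor Nrp1 rose by 1.44 ± 0.26 (adjusted p = 0.00371). Lysosomal acid lipase, Lipa, which frees cholesterol from its esters, rose by 0.87 ± 0.17 (adjusted p = 0.00529), 1 of 3 risers among 22 genes of lysosome and autophagy. No member of the lists of MHC class II (9 genes) and of inflammasome and cell death (21 genes) passed. With 9.25% of all genes tested past the threshold, 0 in lists of this size says little about them. The smallest adjusted p were those of Cd74 and Ctss (0.384 and 0.321) and of Nlrp3 and Casp8 (0.0851 and 0.0933). Of 18 genes of MHC class I and the immunoproteasome 2 fell, against 4.62% of all genes tested. They were Tap1, by 1.10 ± 0.24 (adjusted p = 0.0117, up to 0.0533), and the class I activator Nlrc5, by 0.88 ± 0.22 (adjusted p = 0.0226, up to 0.104).

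Whether these changes needed CpG was asked by setting them beside HDL over control in the same experiment, which shares no array with the comparison above but has the same uneven chip layout (replicate 1 with HDL on chip 1, replicates 1 and 2 without it on chip 2, the others on chip 3). The part of the chips in what both have in common was not tested. HDL without CpG changed 722 genes, 288 up (3.22% of genes tested) and 434 down (4.85%). The count was 395 without HDL replicate 2, 334 with only the groups compared and 1254 with array weights. Of the 415 genes that rose with HDL before CpG, 174 (41.9%) also rose with HDL alone, which is 60.4% of the 288, and of the 413 that fell, 184 (44.6%) also fell, which is 42.4% of the 434. CpG over control, which does share the CpG arrays, changed 1145 genes upward (12.8%) and 1900 downward (21.2%). It is given above for the interferon lists and some of their genes only. The test of the difference passed for 101 of 8949 genes (1.13%). This count was unstable: it lay between 33 and 62 without any 1 of the arrays that received HDL or CpG, at 261 and 260 with the chip as a fixed and a random effect, at 152 with no normexp correction and at 279 with array weights.

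Named genes past this test showed 4 patterns, a grouping made after their values were seen. In the first, HDL lowered a gene less with CpG than without. The formyl peptide receptor Fpr2 had 12.5, 12.62 and 12.82 with HDL and CpG, against 12.88, 12.76 and 12.66 with CpG, while without CpG it had 6.91, 6.82 and 6.9 with HDL, against 9.7, 9.78 and 9.92 in control cells. The HDL effects of -0.12 and -2.93 differed by 2.80 ± 0.20 (adjusted p = 4.15e-05). The fatty acid receptor Gpr84 (-0.76 with CpG, adjusted p = 0.0032, up to 0.0815; -3.42 without) and Nfkbiz (-0.65 with, -2.85 without) were of the same kind, with differences of 2.65 ± 0.19 (adjusted p = 4.15e-05) and 2.19 ± 0.23 (adjusted p = 0.00123). In the second, HDL acted in opposite directions: Irf1 rose with CpG and fell without it (0.82 and -0.97, difference 1.79 ± 0.24, adjusted p = 0.00474), and so did the class I gene H2-M2 (1.73 and -0.80, difference 2.53 ± 0.29, adjusted p = 0.00212). Cxcl1 rose with CpG (1.2) and did not pass without it (-0.68, adjusted p = 0.0606), with a difference of 1.89 ± 0.29 (adjusted p = 0.00921).

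In the third, the effect was larger with CpG. Slc40a1 rose by 2.75 with CpG and by 0.97 without (difference 1.78 ± 0.22, adjusted p = 0.00399), Cdkn2b by 2.64 with CpG and not past the test without (0.37, adjusted p = 0.355; difference 2.27 ± 0.29, adjusted p = 0.00399), and Plk2 by 3.16 and 1.03 (difference 2.13 ± 0.40, adjusted p = 0.0272). Fcgr1 fell in both (-3.34 with CpG, -1.71 without, difference -1.63 ± 0.29, adjusted p = 0.0218), as did Usp18 (-3.15 and -1.56, difference -1.59 ± 0.34, adjusted p = 0.0447) and Mx2 (-2.78 and -1.47, difference -1.31 ± 0.26, adjusted p = 0.0348). Among antiviral effectors 14 of 25 fell with HDL alone, and Mx2 was the 1 member of that list whose difference passed. In the fourth, the effect was smaller with CpG. Slc7a11 rose by 1.63 with CpG and by 3.19 without (difference -1.56 ± 0.30, adjusted p = 0.0314), and Fdps by 1.04 and 2.40 (difference -1.35 ± 0.26, adjusted p = 0.0314). In the sterol list 7 of 19 rose with CpG and 14 of 19 without; the difference passed for 3 members, all toward the smaller effect with CpG, and its median was -0.79. The Fc receptors had 4 of 7 members past the test, all downward with CpG; Fcgr2b, for example, fell by 0.78 with CpG and rose by 1.08 without (difference -1.85 ± 0.31, adjusted p = 0.014).

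**Figure D3:**
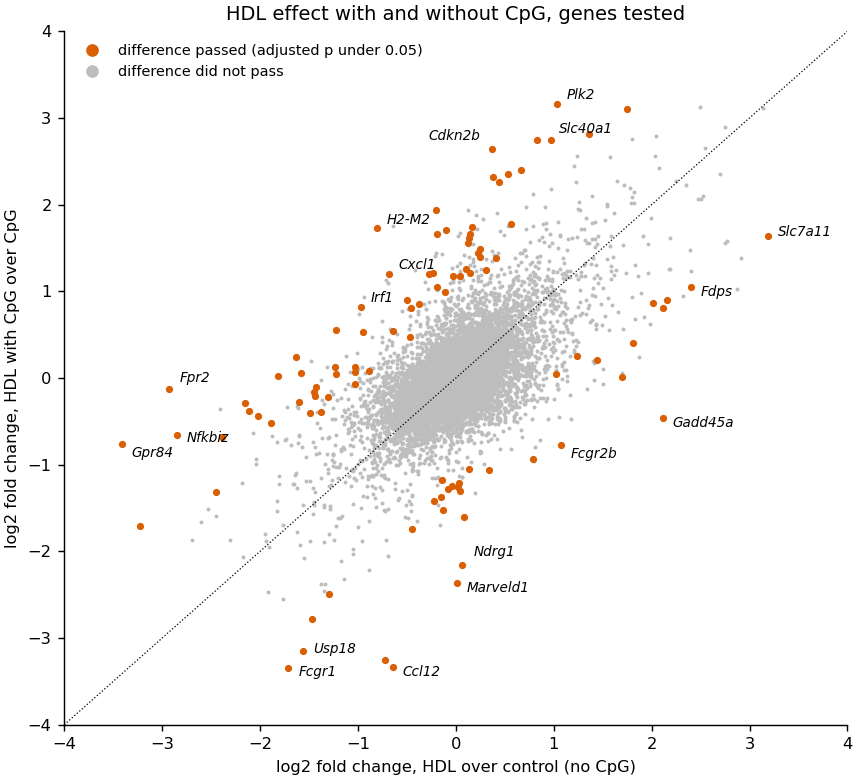
Log2 fold change of HDL with CpG over CpG (y axis) against that of HDL over control (x axis) for 8949 genes; orange points are the 101 genes whose difference passed, and the dotted line marks equal effects. Fpr2 and Gpr84 lie far left, at -0.12 and -0.76 on the y axis, Slc40a1, Cdkn2b and Plk2 lie above the line, and Usp18, Fcgr1 and Ccl12 lie below it.

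The second experiment repeated the comparison in WT cells on other arrays, which were also spread unevenly over chips. Its CpG replicates 1, 2 and 3 lay on chips 1, 3 and 5 of that experiment. HDL with CpG replicate 1 lay on chip 3 and replicates 2 and 3 on chip 4, so only chip 3 held both groups. In the second experiment 1970 of 9211 genes passed, 864 up (9.38%) and 1106 down (12%). The count was 669 with median scaling and 632 with only the groups compared, and the shares below rest on the 1970. Of the 410 genes that rose in the first experiment and were tested in the second, 346 rose again (84.4%, and 40% of the 864), and of the 413 that fell, 326 fell again (78.9%, and 29.5% of the 1106). None passed in the opposite direction. Usp18 had 9.55, 10.01 and 9.47 with HDL and CpG there, against 12, 12.42 and 12.35 with CpG (-2.58, adjusted p = 2.65e-12), Ccl12 had 6.8, 6.99 and 6.69 with HDL and CpG, against 10.83, 10.3 and 9.6 with CpG (-3.42, adjusted p = 9.21e-10), and Gsta3 had 9.87, 10.05 and 10.33 with HDL and CpG, against 7.57, 7.08 and 7.46 with CpG (2.71, adjusted p = 2.57e-11). In the lists, 21 of 26 antiviral effectors fell, 19 of 26 NRF2 targets rose and 17 of 19 sterol genes rose, with medians of -1.43, 1.02 and 1.48. The Fc receptor list held less well: 3 of 7 fell, with a median of -0.24 against -0.94 in the first experiment. Fcgr2b did not pass there (-0.24, adjusted p = 0.265). Tnf was again at 13.72, 13.7 and 13.85 with HDL and CpG, against 12.95, 13.66 and 13.73 with CpG (0.31, adjusted p = 0.394).

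A test of the difference between the experiments passed for 2 of 9415 genes (0.0212%), and for 537 at an unadjusted p under 0.05. One was Pdk4 (adjusted p = 0.00401), for which no size is given here: it was not above background with CpG in the first experiment and was not detected on enough arrays of the second to be tested there. Gm5150, named after its values were seen, fell in both, with 5.96, 5.34 and 5.44 with HDL and CpG, against 8.61, 8.88 and 9.02 with CpG in the first, and 7.04, 7.07 and 6.81 with HDL and CpG, against 8.72, 9.22 and 8.92 with CpG in the second (difference -1.54 ± 0.26, adjusted p = 0.0203). This count was 1 without CpG replicate 2, HDL with CpG replicate 2 or 3 of the first experiment or any 1 of 4 arrays of the second, and 5 without CpG replicate 3. Several genes that passed in the first experiment did not in the second, without a difference that passed. Cxcl1 had 14.4, 14.57 and 14.82 with HDL and CpG there, against 14.46, 13.94 and 14.31 with CpG (0.36, adjusted p = 0.383; difference 0.81, adjusted p = 0.839). Fcgr3 (-0.10, adjusted p = 0.752) and Lcn2 (-0.39, adjusted p = 0.251) were of this kind. So were Ptx3 (-0.07, adjusted p = 0.887) and Cd36 (0.19, adjusted p = 0.712), whose adjusted p in the first experiment were 0.0496 (up to 0.201) and 0.0227 (up to 0.114).

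**Figure D4:**
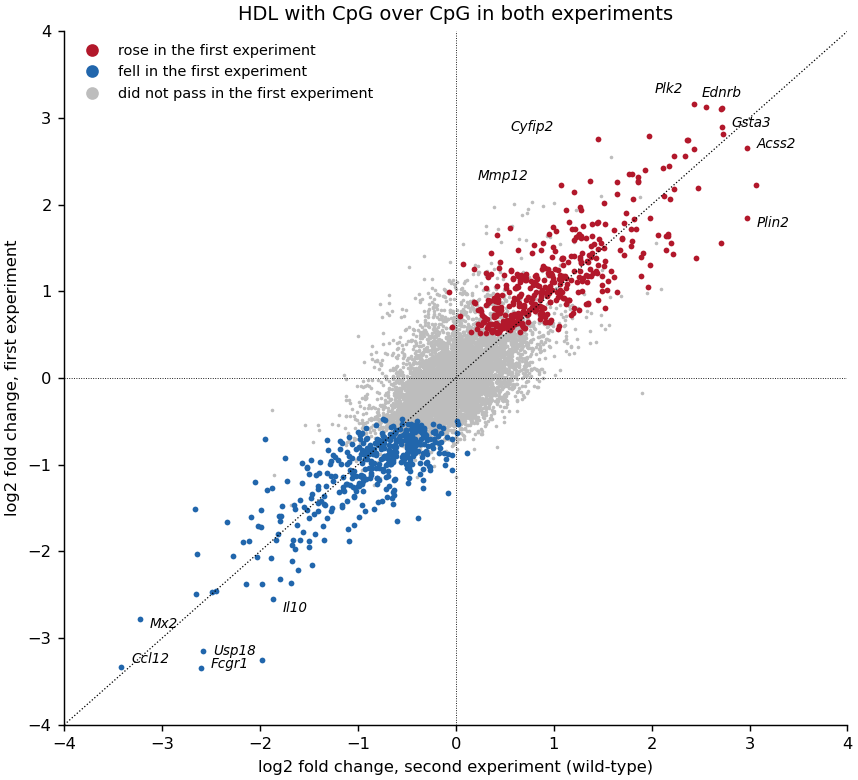
Log2 fold change of HDL with CpG over CpG in the first experiment (y axis) against the second (x axis), 1 point a gene; red and blue points rose and fell in the first experiment, and the diagonal marks equal changes. Among genes that passed in the first experiment, 346 rose again and 326 fell again, and none passed in the opposite direction.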

How the data were processed

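Per the file headers, the deposited scanner tables hold a mean signal intensity and a detection p-value for each of 45281 probes and each array. From the values, intensities are linear, un-normalised and include background. The authors' matrix gives intensity after a normalisation; Partek is named, per the submitters' processing notes, with no version. RNA extraction and the scanner's software are not given in the sources used here. Probes were paired with 1 gene symbol (34885), several (18) or none (10378). The brightest probe was used for each of 19057 genes. Probe positions are not given, and Il12b was not analysed here.

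With limma 3.58.1 (R 4.3.3), neqc corrected background from detection p-values, added an offset of 16, quantile normalised and took log2. Genes with a detection p under 0.01 on at least 3 of the 12 arrays were tested. Abca1 and Nos2 did not reach this. Each group had 1 mean, all 4 groups shared the spread (8 residual degrees of freedom), and eBayes moderated it; p-values were Benjamini-Hochberg adjusted over all genes tested. The second experiment was fitted on its own on all its 36 arrays, of WT cells and of cells labelled Atf3-deficient. Some of these cells received P3C at 50 ng/ml, with or without HDL. All 36 arrays set its normalisation, its filter and its spread (24 residual degrees of freedom). The difference between experiments was fitted on 30 wild-type arrays normalised together, some of them with P3C. A gene detected on none of a group's arrays was bounded on each array by the lowest detected signal, or its own signal where higher. Tested on simulated data for HDL with CpG against CpG with 8949 genes, the fit recovered 96 of 100 genes changed by a log2 of 2 and 58 of 100 changed by a log2 of 1. It also called 7 unchanged genes. The simulated noise was independent between arrays and had no chip effect, so these rates do not cover the uneven chips of the real arrays.

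Named genes were the 15 largest rises and falls, the 5 largest bounds each way, up to 5 members that passed in each of 43 lists (2 with the smallest p where none did), 15 fixed genes and the 5 largest of each difference, leaving out clone names. Members, lists and rules were chosen with earlier results of these data known. Alternatives were no normexp correction, median scaling, matrix values, no detection filter, chip as fixed or random effect, array weights (limma's gene-by-gene estimator, since the REML estimator did not converge), the mean over detected probes, only the groups compared and leaving out each array. Replicate numbers follow record order and pair nothing. Figures used Python 3.11.15 and matplotlib 3.10.9.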

Additional observations from a re-analysis of the deposited data

Results flagged for a closer look

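The HDL effect differed between cells with and without CpG for 101 genes and between the experiments for 2. Each value here is a difference of 2 log2 HDL effects, first with CpG minus without. Beside the genes described above, it was 1.91 for Lhfpl2, 1.73 for the semaphorin receptor Plxna2, 1.53 for Cx3cr1, 1.36 for Slc22a4, and 1.22 for Ptafr. It was -2.57 for the growth arrest gene Gadd45a, -2.37 for Marveld1, -2.22 for Ndrg1, -1.72 for Fcgr3, -1.29 for Fcgr4 and -1.18 for haptoglobin, Hp.

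For genes described above the differences were 2.8 (Fpr2), 2.65 (Gpr84), 2.53 (H2-M2), 2.27 (Cdkn2b), 2.19 (Nfkbiz), 2.13 (Plk2), 1.89 (Cxcl1), 1.79 (Irf1), 1.78 (Slc40a1), -1.31 (Mx2), -1.35 (Fdps), -1.56 (Slc7a11), -1.59 (Usp18), -1.63 (Fcgr1) and -1.85 (Fcgr2b). Between experiments, first minus second, the difference was -1.54 for Gm5150. For 5 other genes 1 of the subtracted effects was not measured, so the fitted values rest on signals at background and give no size: 1.46 for Tent5c (not above background with CpG), 1.16 for Maff (in neither group without CpG), -2.69 for Ccl12 and -1.19 for Igsf9 (with HDL alone), and 2 for Pdk4 between experiments (with CpG in the first). Groups of 3 arrays were not searched for outlying arrays.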

How the results depend on the processing

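The sign of the 828 changes held under each alternative that tested them (822 or 823 when an array of the 2 groups was left out, 828 otherwise), and between 509 and 828 passed again. For the 826 genes whose groups did not overlap, the sign could hardly turn when an array was left out. HDL with CpG against CpG gave 512 to 799 genes when 1 array was left out, and array weights, by the gene-by-gene estimator here and below, gave 3470 (1363 up and 2107 down). Array weights gave 1254 for HDL against control, 279 for the difference with and without CpG and 77 for the difference between experiments; the weights ranged from 0.23 to 2.96, and the CpG arrays that were most alike had 2.51 and 2.33. HDL against control gave 334 with only the groups compared and 395 to 945 when 1 array was left out, and CpG against control 2358 to 3511. The difference with and without CpG gave 152 with no normexp correction, 63 with median scaling, 153 with the matrix values, 261 with the chip as a fixed effect, 260 with the chip as a random effect and 33 to 102 when 1 array was left out. The second experiment gave 669 with median scaling, 632 with only the groups compared and 1569 to 2121 when 1 array was left out. The difference between experiments gave 1 with no normexp correction, 1 with the chip as a fixed effect, 0 with only the groups compared (limma) and 1 to 5 when 1 array was left out. The median of the LXR list turned to 0.01 with array weights, and lay between -0.41 and 0.01 when 1 array was left out, and that of the dendritic cell markers turned to 0.02 with no detection filter; the cause was not tested. In the fits with the chip as a random effect, what remained after the group means correlated between arrays of 1 chip. This consensus over genes was 0.4097 in the first experiment and 0.0957 in the second, and is not the correlation of whole arrays. No paired analysis was possible because replicate numbers follow the order of the records. Weak signals limit the bounds given for genes at background, and chip and group cannot be told apart on chips 1 and 2.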
